A study of Mus musculus with 9 samples.

Results

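The mitochondrial ribosomal protein genes, called Mrpl for the large and Mrps for the small subunit, encode the protein part of the ribosome that works inside mitochondria. They were taken as every gene of the expression table whose Ensembl identifier belongs to a mouse symbol of the form Mrpl or Mrps followed by a number and at most 1 letter. This gave 78 of the 55704 genes in the table, all of them protein-coding and spread over 17 chromosomes. No expression value was used to choose them. By their known place in the particle, 51 belong to the large subunit and 26 to the small subunit. Mrps30 and Mrps18a carry small subunit names but sit in the large subunit. The remaining member, Mrps36, is now known as a component of the oxoglutarate dehydrogenase complex and was put in neither subunit. Mrpl53, a protein of the large subunit stalk, was listed at 0 in all 9 libraries, which left 77 members for the tests.

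Neural stem cells (NSCs) had been isolated from the subventricular zone of C57BL/6 mice aged 8 to 9 weeks, with 2 female and 2 male animals for each isolation, and passaged at least 3 times. The bFGF/EGF-treated NSCs were adherent cells collected 16 to 18 h after plating with both growth factors, which is day 0. For the bFGF/BMP4-treated NSCs EGF was then replaced by BMP4, and for the BMP4-treated NSCs both growth factors were replaced by BMP4, each factor at 20 ng/mL, with collection on day 6. The bFGF/BMP4 medium is described as a quiescence medium and the BMP4 medium as BMP4-induced, and the comparison asks how the transcriptomes of these states differ from the proliferating culture and from each other. All groups share the strain, the way of isolation and the DMEM/F12 base medium. The supplement is given as B27 minus vitamin A for the control medium and as B27 for the other media, and the control was collected on day 0, so that factor, supplement and days in culture cannot be told apart. The 3 libraries of a group are labelled as biological replicates, but whether they came from separate isolations is not stated, and the p-values measure the spread between these libraries.

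As background, the mitochondrial genome encodes a small set of respiratory chain subunits together with the ribosomal and transfer RNAs, and every protein of the mitochondrial ribosome is made in the cytosol from nuclear genes and imported. Some of these proteins have bacterial counterparts, and others were added in mitochondria and occur only there. Quiescent adult NSCs are known to differ from proliferating ones in protein synthesis and in mitochondrial metabolism.

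The promoter sequences of some members that differed between the groups are shown first. RefSeq promoters (GRCm38.p6), 250 bases before and 50 after a transcription start, were found for 69 of the 78 members. Those without an entry were Mrpl4, Mrpl13, Mrpl15, Mrpl19, Mrpl38, Mrpl54, Mrps28, Mrps34 and Mrps35. The stretches run 5′ to 3′ on the gene's strand, end before the start and lie in no exon of the GENCODE annotation, and their coordinates come from a match to GRCm39. The first 4 belong to members that were lower in both BMP4 conditions and the last to a member that was higher in both. Capitals mark TGCGCA, a core sequence of sites for the transcription factor NRF1, or CCGGAAG, a site of ETS family factors such as GABP, on either strand.
Mrpl58, chr11:115294406-115294555, plus strand: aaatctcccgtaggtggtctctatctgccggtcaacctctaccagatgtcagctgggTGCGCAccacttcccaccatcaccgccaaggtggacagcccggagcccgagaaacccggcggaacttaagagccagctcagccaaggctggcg
Mrpl23, chr7:142086599-142086748, plus strand: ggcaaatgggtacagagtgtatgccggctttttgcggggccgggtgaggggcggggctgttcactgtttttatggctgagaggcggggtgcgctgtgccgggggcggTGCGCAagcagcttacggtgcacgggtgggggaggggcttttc
Mrpl52, chr14:54664280-54664359, plus strand: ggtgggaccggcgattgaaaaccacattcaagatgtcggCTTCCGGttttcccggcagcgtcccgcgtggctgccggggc
Mrpl12, chr11:120375280-120375429, plus strand: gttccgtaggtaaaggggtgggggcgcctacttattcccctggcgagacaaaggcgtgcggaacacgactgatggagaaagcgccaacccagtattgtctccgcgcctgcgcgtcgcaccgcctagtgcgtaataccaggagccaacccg
Mrpl16, chr19:11747587-11747736, plus strand: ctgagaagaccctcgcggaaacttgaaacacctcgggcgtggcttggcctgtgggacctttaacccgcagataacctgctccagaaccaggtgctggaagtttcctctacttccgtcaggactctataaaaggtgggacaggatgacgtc
The TGCGCA of Mrpl58 began 115 bases and that of Mrpl23 63 bases before the start. The stretch of Mrpl23 lies inside the GENCODE gene, which begins upstream of the RefSeq start used here, at chr7:142086423. The ETS sequence of Mrpl52 lay on the opposite strand and began 47 bases before the start, and the shown stretches of Mrpl12 and Mrpl16 held neither. Over the full 300 bases and both strands, CCGGAAG was in a promoter of 26 of the 69 members (37.7%) and of 12.9% of the 17492 protein-coding genes in the table. TGCGCA was in 21 members (30.4%) against 11.0% of protein-coding genes, and the longer palindromic NRF1 site, which does not hold those letters in a row, in 3 members (4.35%) against 1.47%. AAGATGGCG, a site of YY1 whose first letters can overlap the end of CCGGAAG, was in 8 members (11.6%) against 2.14%. The E-box CACGTG, a site of MYC, was in 5 members (7.25%) against 8.91%, and CCAAT in 27 (39.1%) against 42.3%. CCGGAAG was in 45.5% of the 22 members lower in both BMP4 conditions that had a promoter. It was in 31.4% of the 35 such members that passed in neither. TGCGCA was in 31.8% and 22.9% of these sets, and AAGATGGCG in 4.55% and 14.3% (1 and 5 members). The longer NRF1 site was in 4.55% and 5.71% (1 and 2 members), CACGTG in 13.6% and 2.86% (3 and 1), and CCAAT in 36.4% and 42.9%. These are matches of letters in a window and not evidence of binding, and their part in the differences was not tested. Of 20 named members that passed against bFGF/EGF and had a promoter, 10 had a stretch of at least 60 bases, and not all of these are shown. The stretches of Mrpl11, Mrps15, Mrps33 and Mrpl36, not shown, held neither TGCGCA nor CCGGAAG, and that of Mrpl45 held TGCGCA. Elsewhere in their full 300 bases Mrpl11 and Mrpl36 held TGCGCA, and Mrps33 and Mrpl58 held CCGGAAG. The bases before the start lay wholly in annotated exons for Mrps18b, Mrps27, Mrps6, Mrpl18, Mrpl17, Mrpl22, Mrps7, Mrps21 and Mrps18c.

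The values were FPKM, fragments per kilobase of gene, scaled to the mapped fragments of the library, so that levels of different genes can be compared per length. Whole fragment numbers rebuilt from them gave 15892854 to 17419822 fragments on genes in a library. A tested member had 98 to 4507 fragments in a library, with a median of 566. Libraries of a group were not equal for these genes. In BMP4 replicate 2, 76 of the 77 members lay above the mean of their group mates, by a median of 0.44 on the log2 scale, while the median over all genes was 0.00. In bFGF/EGF replicate 2, 73 lay above, by 0.31, and in bFGF/EGF replicate 3 only 3 did. Summed FPKM over all genes was 326302 in BMP4 replicate 2 and 256230 to 294652 in the others. Results are therefore also given without BMP4 replicate 2, a choice made after seeing the data.

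Other properties of the cultures moved with the groups. Summed FPKM of 10 proliferation genes was 416 to 824 in bFGF/EGF-, 89.6 to 158 in bFGF/BMP4- and 48.4 to 63.3 in BMP4-treated NSCs, and all 10 were lower in both BMP4 conditions. The 6 mature astrocyte markers summed to 129 to 176, 492 to 526 and 3234 to 4096 FPKM, with 5 of 6 higher and Aldh1l1 lower in both. The 7 NSC markers summed to 1706 to 1814, 682 to 783 and 1498 to 1939, and all were above 0 in every group. They went in both directions. In bFGF/BMP4 4 were lower and 2 higher, with log2 differences from -5.38 to 1.60. In BMP4 1 was lower and 3 were higher, with differences from -3.30 to 2.16. The shares of all genes were 23.6% lower and 25.0% higher in bFGF/BMP4, and 25.3% and 29.6% in BMP4. Neuron markers reached 185 in a BMP4 library and at most 32.1 in the other groups, mostly through Tubb3. Ependymal markers summed to 58.0 to 70.1 in BMP4 libraries against at most 12.4 elsewhere, with Tmem212 at 0 throughout. Microglial and vascular markers summed to at most 1.74 and 5.15, with C1qa and Cldn5 at 0. The part of these differences in the results was not tested. In such bulk samples fewer cells of a type and less RNA per cell cannot be told apart.

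bFGF/BMP4-treated NSCs expressed the mitochondrial ribosomal protein genes at a lower level than bFGF/EGF-treated NSCs. Of the 77 members, 31 (40.3%) were lower and 1 was higher (limma on log2(FPKM + 0.1), Benjamini-Hochberg adjusted p of at most 0.05). Over all 20207 genes tested, 23.6% were lower and 25.0% higher. The median difference of the members was -0.37 on the log2 scale, and that of all genes 0.06. In 45 members (58.4%) every bFGF/BMP4 library was below every bFGF/EGF library, against 27.5% of all genes, and in 2 every one was above, against 30.2%. Differences were moderate: 7 members were lower by at least 2-fold, a size that 14.1% of all genes reached. Without BMP4 replicate 2, which enters this fit through the shared variance, 40 were lower and 1 was higher, against 24.4% and 25.9% of all genes.

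**Figure D1:**
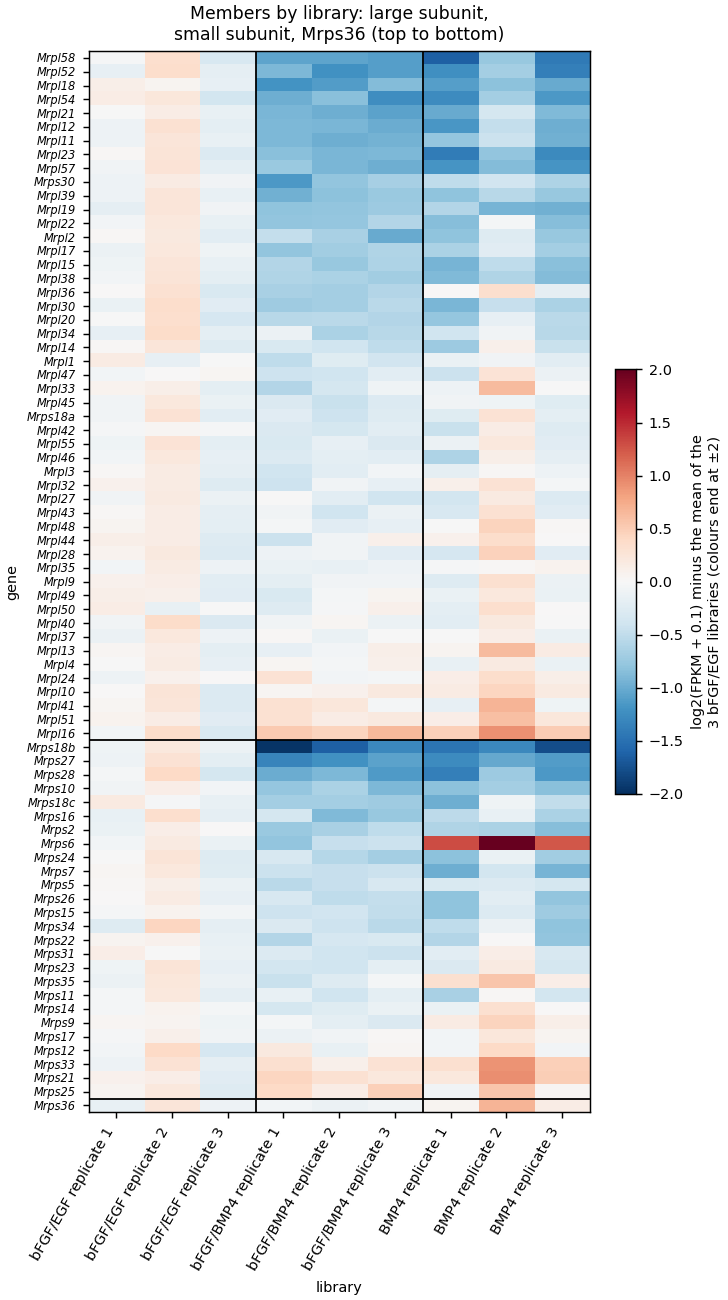
Each row is 1 of 77 members and each column 1 of 9 libraries; colour gives log2(FPKM + 0.1) minus the mean of the 3 bFGF/EGF libraries. Blue prevails in the bFGF/BMP4 columns (median difference -0.37), BMP4 replicate 2 is redder than the other BMP4 columns, and Mrps6 stands out in the 3 BMP4 libraries.

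Both subunits took part. In the large subunit 22 of 50 tested members (44.0%) were lower and 1 (2.0%) was higher, with a median of -0.34. In the small subunit 9 of 26 (34.6%) were lower, with a median of -0.42. Of all genes 23.6% were lower and 25.0% higher. By origin, 21 of 46 members with a bacterial counterpart (45.7%) and 10 of 30 found only in mitochondria (33.3%) were lower, with medians of -0.43 and -0.31. Among the small subunit members found only in mitochondria, 2 of 10 (20.0%) were lower, below the share of all genes. Split into 3 classes by mean FPKM, 12 of 26 members in the lowest (46.2%), 10 of 26 in the middle (38.5%) and 9 of 25 in the highest class (36.0%) were lower.

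The lowest log2 difference belonged to Mrps18b, which encodes 1 of 3 related S18 proteins and is found in the small subunit (ENSMUSG00000024436, chr17:36221266-36227606, GRCm39, minus strand). Its FPKM was 10.9, 13.4 and 10.7 in the bFGF/EGF, 2.92, 3.68 and 4.72 in the bFGF/BMP4 and 4.16, 4.70 and 3.34 in the BMP4 libraries. The bFGF/EGF libraries were all more than 2 times as high as any other, and the BMP4 conditions overlapped. Of the exon length of Mrps18b, 29.3% is shared with a long noncoding RNA gene and 9.16% with Ppp1r10, both on the opposite strand. The log2 difference was -1.62 ± 0.20 (SE) in bFGF/BMP4-treated NSCs (adjusted p = 9.5e-05, limma with Benjamini-Hochberg adjustment, n = 3 per group), a 3.08-fold lower level, and -1.51 ± 0.20 in BMP4-treated NSCs (adjusted p = 1.2e-04). Its relatives were nearer to the control. Mrps18c, the S18 protein that resembles the bacterial one most, had FPKM of 16.0, 13.9 and 12.8, then 8.79, 8.78 and 8.66, then 7.15, 13.4 and 10.1 in the 3 groups in the same order. It was lower in bFGF/BMP4 (-0.69, adjusted p = 0.016) and only just so in BMP4 (-0.51, adjusted p = 0.0499), where replicate 2 lay within the bFGF/EGF range; 76.9% of its exon length is shared with Abraxas1 on the opposite strand. Mrps18a, the relative in the large subunit, had 12.2, 15.7 and 11.1 FPKM in the bFGF/EGF, 11.0, 9.61 and 10.7 in the bFGF/BMP4 and 10.8, 15.8 and 11.2 in the BMP4 libraries. It differed by -0.30 and -0.05 and passed in neither comparison.

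Mrps27, a small subunit protein that mitochondria added and that belongs to the pentatricopeptide repeat proteins, followed (ENSMUSG00000041632, chr13:99480757-99552086, GRCm39, plus strand). Its FPKM was 20.0, 26.2 and 18.6 in bFGF/EGF, 8.51, 9.12 and 10.2 in bFGF/BMP4 and 8.86, 10.5 and 9.85 in BMP4 libraries. Every library of both BMP4 conditions was below every control, and the differences were -1.20 ± 0.15 and -1.13 ± 0.15 (adjusted p = 9.7e-05 and 1.1e-04). Mrps28, another small subunit protein with a bacterial counterpart, had 50.6, 68.9 and 40.8 FPKM in bFGF/EGF, 26.2, 27.8 and 23.7 in bFGF/BMP4 and 20.1, 31.6 and 23.4 in BMP4 libraries. Again no library overlapped the control, with differences of -1.01 and -1.08. Mrps10, Mrps2 and Mrps5, all with bacterial counterparts, were lower in both conditions as well, with differences of -0.76, -0.63 and -0.44 with bFGF/BMP4 and of -0.78, -0.70 and -0.31 with BMP4 alone. Mrps15, also with a bacterial counterpart, had 25.1, 26.7 and 24.4 FPKM in the bFGF/EGF, 19.1, 19.5 and 18.1 in the bFGF/BMP4 and 14.6, 21.0 and 15.5 in the BMP4 libraries (-0.43 and -0.59).

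**Figure D2:**
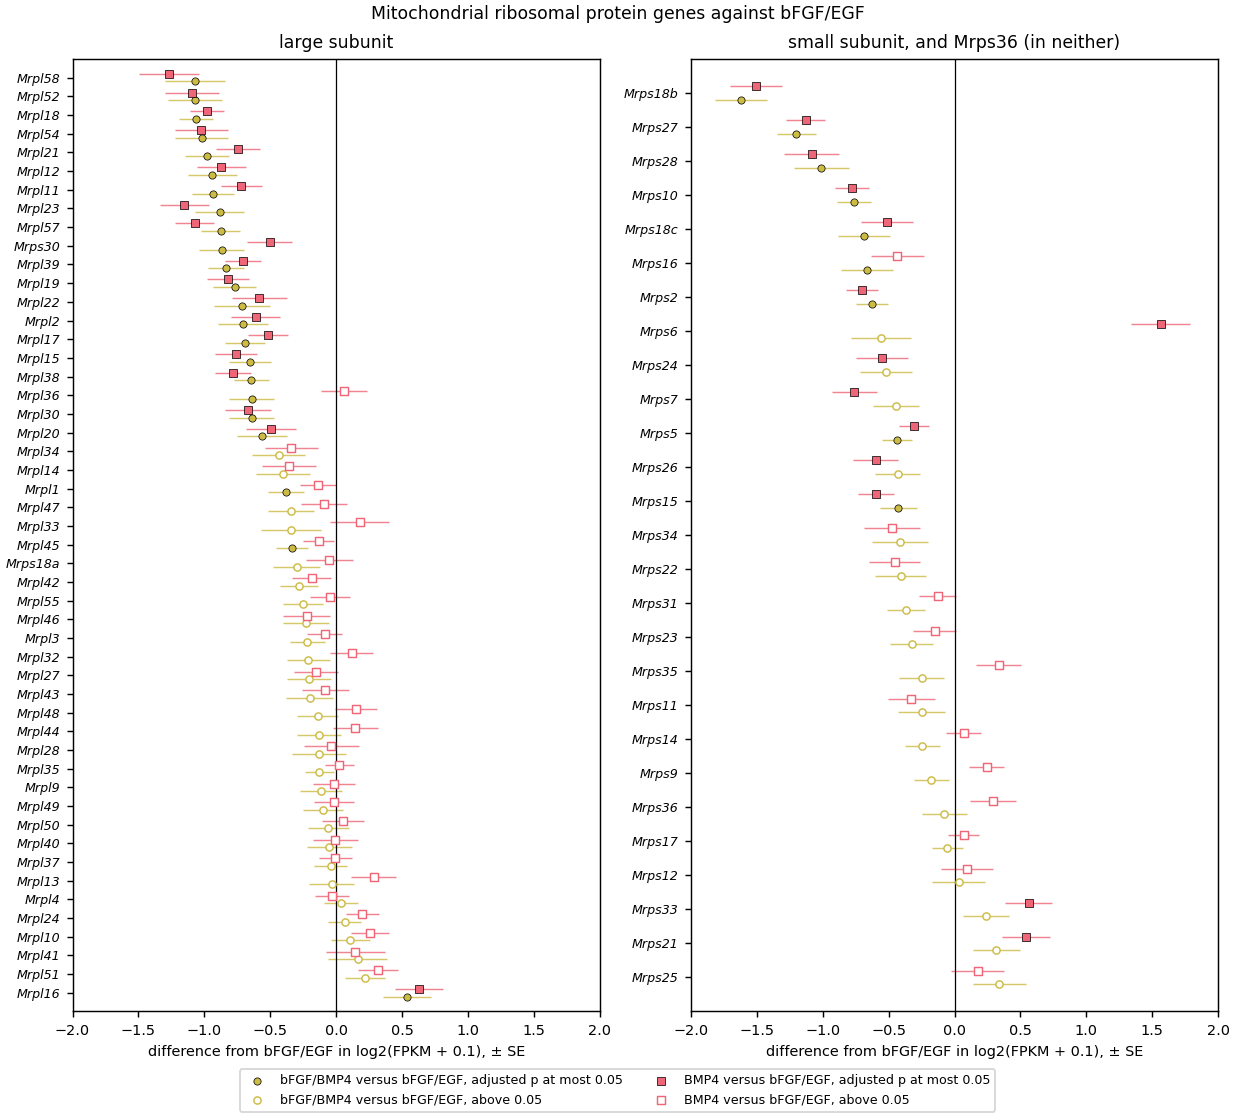
Points give each member's difference from bFGF/EGF in log2(FPKM + 0.1) with its SE as a bar (n = 3 libraries per group), circles for bFGF/BMP4 and squares for BMP4; filled points passed an adjusted p of 0.05. Most filled points lie left of 0, with Mrps18b lowest at -1.62 and -1.51, and Mrps6 lies far right for BMP4 only, at 1.56.

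In the large subunit the stalk, the flexible arm that binds translation factors, held the most abundant member that was lower. Mrpl12, the stalk protein that also binds the mitochondrial RNA polymerase, had FPKM of 76.6, 102 and 71.5 in bFGF/EGF, 44.0, 43.5 and 41.1 in bFGF/BMP4 and 36.9, 58.8 and 41.8 in BMP4 libraries. All 6 libraries of the BMP4 conditions were below the 3 controls, with differences of -0.94 ± 0.19 and -0.87 ± 0.19 (adjusted p = 0.0021 and 0.0027). Mrpl11 at the base of the stalk had 14.5, 18.3 and 14.0 FPKM in the bFGF/EGF, 8.29, 7.85 and 8.02 in the bFGF/BMP4 and 9.04, 11.5 and 7.90 in the BMP4 libraries, also without overlap (-0.93 and -0.72). Mrpl54, a stalk protein of mitochondria, had 44.4, 46.8 and 30.9 FPKM in the bFGF/EGF, 20.3, 22.4 and 16.8 in the bFGF/BMP4 and 16.7, 25.1 and 18.1 in the BMP4 libraries. It differed by -1.02 and -1.02, and 94.4% of its exon length is shared with Matk on the opposite strand, a gene at 0.578 to 2.07 FPKM that was higher in both (1.37 and 0.64). Mrpl10, which anchors Mrpl12 in the ribosome, did not pass in either condition: its FPKM was 32.3, 38.4 and 26.4 in bFGF/EGF, 33.0, 34.0 and 36.5 in bFGF/BMP4 and 35.9, 43.2 and 36.1 in BMP4 libraries (differences of 0.11 and 0.26, adjusted p = 0.58 and 0.16). Thus 3 of 4 tested stalk genes were lower in each BMP4 condition, against 23.6% of all genes in bFGF/BMP4 and 25.3% in BMP4.

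At the central protuberance, the crown of the large subunit where it meets the small one, 3 of 8 members (37.5%) were lower in each condition. Of all genes 23.6% were lower in bFGF/BMP4 and 25.3% in BMP4. Mrpl58, a peptidyl-tRNA hydrolase that releases stalled chains and is built into the ribosome, had FPKM of 17.0, 21.9 and 13.8 in bFGF/EGF, 8.28, 8.26 and 8.00 in bFGF/BMP4 and 5.53, 10.2 and 6.39 in BMP4 libraries. Neither BMP4 condition overlapped the control, and the differences were -1.07 ± 0.23 and -1.27 ± 0.23 (adjusted p = 0.0032 and 9.5e-04). Mrpl18 had 35.6, 34.1 and 29.3 in bFGF/EGF, 14.2, 15.1 and 17.9 in bFGF/BMP4 and 15.2, 18.5 and 16.3 in BMP4 libraries, no overlap and differences of -1.06 and -0.98. Tcp1 on the opposite strand shares 20.9% of its exon length. Mrpl38, a protein of mitochondria only, had 22.4, 27.7 and 20.3 FPKM in the bFGF/EGF, 15.3, 15.0 and 14.3 in the bFGF/BMP4 and 12.6, 15.2 and 12.7 in the BMP4 libraries, again without overlap (-0.64 and -0.78). The other 5, Mrpl27, Mrpl40, Mrpl46, Mrpl48 and Mrpl55, lay between -0.25 and -0.05 in bFGF/BMP4 and between -0.22 and 0.15 in BMP4, and none passed. Mrpl27 had 32.7, 39.0 and 31.8 FPKM in the bFGF/EGF, 34.2, 29.7 and 26.0 in the bFGF/BMP4 and 26.6, 38.9 and 28.6 in the BMP4 libraries. Mrpl40 had 15.8, 21.6 and 13.7 FPKM in the bFGF/EGF, 16.0, 17.1 and 15.3 in the bFGF/BMP4 and 14.4, 19.2 and 16.6 in the BMP4 libraries. Libraries of both BMP4 conditions overlapped the control in these 2. Mrpl46 had 17.1, 20.6 and 15.9 FPKM in the bFGF/EGF, 14.6, 15.4 and 15.3 in the bFGF/BMP4 and 11.6, 19.3 and 15.6 in the BMP4 libraries. Mrpl48 had 6.36, 6.79 and 5.31 FPKM in the bFGF/EGF, 5.97, 5.23 and 5.46 in the bFGF/BMP4 and 6.07, 8.33 and 6.25 in the BMP4 libraries. Mrpl55 had 24.2, 31.0 and 22.3 FPKM in the bFGF/EGF, 20.7, 22.8 and 20.9 in the bFGF/BMP4 and 23.5, 29.7 and 21.8 in the BMP4 libraries. In all 5 BMP4 replicate 2 was the highest BMP4 library.

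Around the tunnel exit, where the new chain leaves the ribosome at the inner membrane, 4 of 6 members were lower in bFGF/BMP4 and 3 of 6 in BMP4. The shares of all genes were 23.6% and 25.3%. Every library lay below every control in 5 members (83.3%) in bFGF/BMP4, against 27.5% of all genes. In BMP4 this held for 2 (33.3%), near the 27.8% of all genes, and 1 member lay wholly above. Mrpl23 had FPKM of 9.58, 11.2 and 7.80 in bFGF/EGF, 5.25, 4.95 and 5.01 in bFGF/BMP4 and 3.51, 5.44 and 3.86 in BMP4 libraries. The groups did not overlap the control, with differences of -0.88 and -1.15 (adjusted p = 0.0030 and 4.8e-04). Mrpl22 had 32.2, 38.4 and 29.9 FPKM in the bFGF/EGF, 19.2, 19.5 and 22.2 in the bFGF/BMP4 and 18.4, 32.4 and 18.4 in the BMP4 libraries, and BMP4 replicate 2 lay within the control range. Mrpl17 had 13.4, 16.8 and 13.8 in the bFGF/EGF, 8.40, 8.98 and 9.62 in the bFGF/BMP4 and 9.34, 12.4 and 9.06 in the BMP4 libraries. They differed by -0.71 and -0.69 in bFGF/BMP4 and by -0.58 and -0.52 in BMP4, all of which passed. Mrpl45, which tethers the ribosome to the inner membrane, had 22.0, 26.6 and 21.1 FPKM in the bFGF/EGF, 18.9, 16.9 and 19.2 in the bFGF/BMP4 and 21.9, 21.8 and 19.5 in the BMP4 libraries. It passed in bFGF/BMP4 only (-0.33, adjusted p = 0.042, against -0.13, adjusted p = 0.38); the difference between the conditions was 0.20 (adjusted p = 0.30). Mrpl24 and Mrpl47 passed in neither. Mrpl24 had 12.6, 14.3 and 13.5 FPKM in the bFGF/EGF, 16.4, 12.9 and 13.1 in the bFGF/BMP4 and 14.8, 17.2 and 14.5 in the BMP4 libraries. Mrpl47 had 5.24, 5.45 and 5.61 in the bFGF/EGF, 4.04, 4.09 and 4.68 in the bFGF/BMP4 and 4.03, 6.58 and 4.98 in the BMP4 libraries, where the bFGF/BMP4 libraries lay below the control and the BMP4 libraries overlapped it.

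Away from these sites, Mrpl52, a large subunit protein of mitochondria only, had FPKM of 41.4, 59.5 and 41.1 in bFGF/EGF, 25.1, 20.0 and 21.7 in bFGF/BMP4 and 19.8, 28.9 and 18.0 in BMP4 libraries. It was 2.10-fold lower in bFGF/BMP4 and 2.14-fold lower in BMP4, with no overlap (adjusted p = 0.0017 and 0.0012). Mrpl57, also mitochondrial only, had 16.7, 21.2 and 15.2, then 10.4, 9.31 and 8.85, then 7.69, 9.55 and 7.71 in the same order and differed by -0.88 and -1.07. Mrpl21, Mrps30, Mrpl39, Mrpl19, Mrpl2, Mrpl15 and Mrpl30 were lower in both conditions too, with differences of -0.98 to -0.64 in bFGF/BMP4, and so was Mrpl20 (-0.56 and -0.50).

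**Figure D3:**
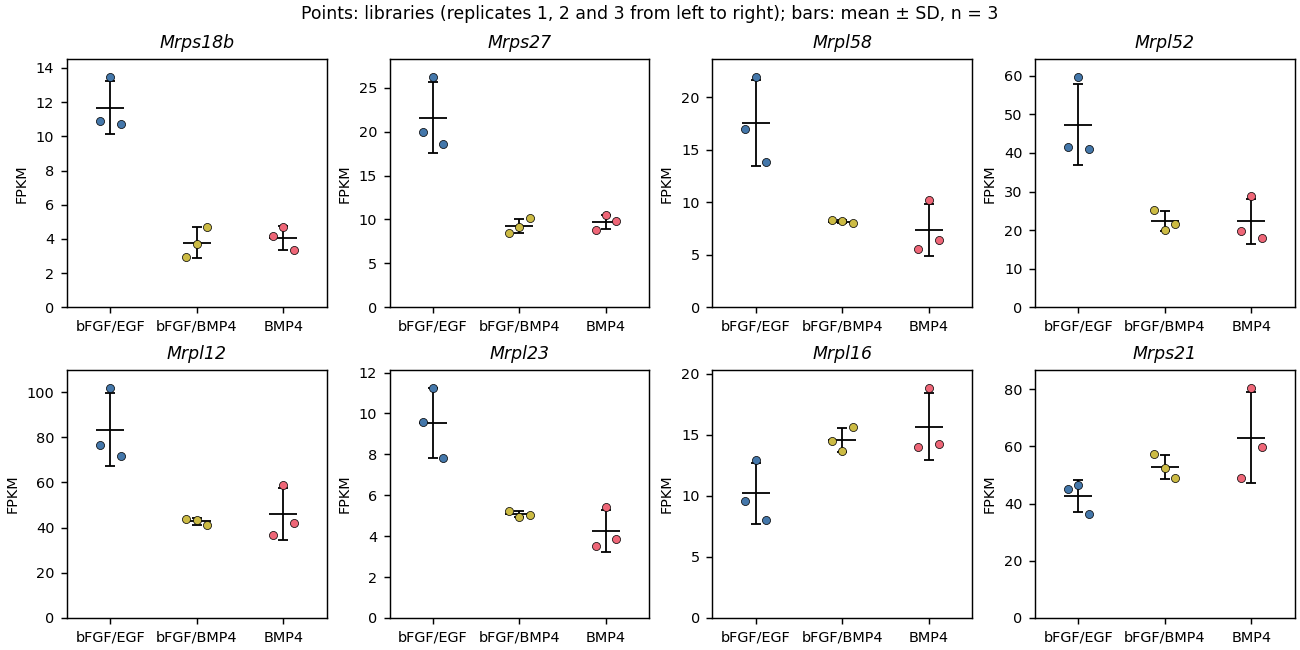
FPKM of 8 members in each library, with the mean ± SD of 3 libraries as bars; every axis starts at 0. The first 6 panels show members whose BMP4-condition libraries all lie under the bFGF/EGF libraries, and Mrpl16 and Mrps21 show members whose libraries lie above.

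A few members did not follow. Mrpl16, a large subunit protein with a bacterial counterpart, was the only member higher in bFGF/BMP4: FPKM was 9.60, 13.0 and 8.04 in bFGF/EGF, 14.5, 13.7 and 15.7 in bFGF/BMP4 and 14.0, 18.8 and 14.2 in BMP4 libraries. All 6 libraries were above the controls, by 0.54 ± 0.18 (adjusted p = 0.033) and 0.63 ± 0.18 (adjusted p = 0.015). The first call was lost when bFGF/EGF replicate 1 or 3 or any bFGF/BMP4 library was left out, and 29.3% of its exon length is shared with Stx3 on the opposite strand. Mrpl51 and Mrps25 were among the 5 largest positive differences in bFGF/BMP4 without passing (0.22 and 0.34, adjusted p = 0.27 and 0.19). Mrpl51 had 14.5, 15.3 and 11.7 FPKM in the bFGF/EGF, 17.0, 15.2 and 15.8 in the bFGF/BMP4 and 15.1, 20.9 and 16.0 in the BMP4 libraries. Mrps25 had 4.44, 4.92 and 3.53 FPKM in the bFGF/EGF, 5.64, 4.72 and 5.98 in the bFGF/BMP4 and 4.04, 6.33 and 4.37 in the BMP4 libraries, and 47.9% of its exon length is shared with Nr2c2. Among the 5 most abundant members, Mrpl34 and Mrpl28 passed in neither condition. Mrpl34 had 71.7, 104 and 69.9 FPKM in the bFGF/EGF, 73.9, 51.7 and 54.8 in the bFGF/BMP4 and 61.1, 76.5 and 54.9 in the BMP4 libraries, and 81.4% of its exon length is shared with a long noncoding RNA gene on the opposite strand. Mrpl28 had 55.6, 60.6 and 43.7 in the bFGF/EGF, 49.3, 50.4 and 45.2 in the bFGF/BMP4 and 41.6, 72.7 and 45.1 in the BMP4 libraries. Mean FPKM of a tested member over all libraries ran from 2.71 for Mrpl33 to 68.7 for Mrpl34, with a median of 15.7. Mrps36 was at 18.0 to 23.5, 18.3 to 19.1 and 20.6 to 31.8 FPKM and did not pass in any comparison.

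In BMP4-treated NSCs, too, more members were lower than higher against bFGF/EGF-treated NSCs, with more exceptions. Of the 77 members, 30 (39.0%) were lower and 4 (5.19%) were higher, against 25.3% and 29.6% of all genes. The median difference was -0.15, and that of all genes 0.10. In 26 members (33.8%) every BMP4 library was below every control (27.8% of all genes), and in 6 every one was above (32.6%). By at least 2-fold, 8 were lower (15.4% of all genes) and 1 was higher (21.3%). Without BMP4 replicate 2, 36 were lower and 1 was higher, against 24.5% and 28.9% of all genes, and the median was -0.32. The median was -0.09 without BMP4 replicate 1 and -0.10 without BMP4 replicate 3. This comparison shares its controls with the former, so that members low in both do not stand for independent evidence. The large subunit had 19 lower and 1 higher of 50, and the small subunit 11 lower and 3 higher of 26, with medians of -0.14 and -0.38.

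Members that were lower in BMP4 but did not pass in bFGF/BMP4 were Mrps7, Mrps24 and Mrps26. Mrps7, a small subunit protein with a bacterial counterpart, had FPKM of 38.7, 43.5 and 31.8 in bFGF/EGF, 27.8, 27.4 and 27.9 in bFGF/BMP4 and 19.1, 29.2 and 19.7 in BMP4 libraries. Both BMP4 conditions lay below the controls, with differences of -0.44 (adjusted p = 0.060) and -0.76 (adjusted p = 0.0041), and 48.1% of its exon length is shared with Mif4gd. Members that were lower in bFGF/BMP4 but did not pass in BMP4 were Mrps16, Mrpl36, Mrpl1 and Mrpl45. For Mrpl36 the difference between the BMP4 conditions itself passed, as described for that comparison.

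The 4 members that were higher in BMP4-treated NSCs were Mrps6, Mrpl16, Mrps33 and Mrps21. Mrps21, the counterpart of bacterial S21, had FPKM of 45.0, 46.5 and 36.3 in bFGF/EGF, 57.4, 52.3 and 48.9 in bFGF/BMP4 and 49.0, 80.4 and 59.6 in BMP4 libraries, all above the controls. The differences were 0.32 (adjusted p = 0.18) and 0.54 (adjusted p = 0.027). Mrps33, a small subunit protein of mitochondria only, had 15.1, 20.0 and 14.3 FPKM in the bFGF/EGF, 20.3, 17.6 and 19.9 in the bFGF/BMP4 and 20.3, 30.5 and 22.6 in the BMP4 libraries. Its BMP4 libraries were all above the control, and it differed by 0.56 (adjusted p = 0.020). Without BMP4 replicate 2, only Mrps6 still passed: the adjusted p was 0.073 for Mrps21, 0.063 for Mrps33 and 0.054 for Mrpl16. Leaving out bFGF/EGF replicate 3 also left 1.

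Mrps6, which encodes a small subunit protein with a bacterial counterpart, was the largest exception (ENSMUSG00000039680, chr16:91854965-91909592, GRCm39, plus strand). Its FPKM was 39.5, 46.6 and 37.4 in bFGF/EGF, 23.7, 29.8 and 30.3 in bFGF/BMP4 and 101, 182 and 97.6 in BMP4 libraries. The 3 BMP4 libraries were above all others and the bFGF/BMP4 libraries below all others. BMP4-treated NSCs had a 2.96-fold level of the control (log2 difference 1.56 ± 0.23, adjusted p = 2.3e-04) and a 4.36-fold level of the bFGF/BMP4 cells (2.12 ± 0.23, adjusted p = 1.3e-04). The difference of bFGF/BMP4 from the control did not pass (-0.56, adjusted p = 0.065). Without BMP4 replicate 2 the first 2 differences were 1.27 and 1.83, and both passed. The lower level in bFGF/BMP4 than in the control, at -0.56 as before, then passed too (adjusted p = 0.0067).

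Mrps6 begins at the same base as Slc5a3, the gene of a myo-inositol transporter on the same strand, and 404 bases or 12.6% of its exon length are shared with that gene. Slc5a3 had FPKM of 11.7, 8.85 and 16.3 in bFGF/EGF, 6.35, 7.72 and 6.35 in bFGF/BMP4 and 26.7, 23.9 and 31.4 in BMP4 libraries, so that its groups had the order of Mrps6. Its differences were 1.18 ± 0.21 from bFGF/EGF (adjusted p = 8.3e-04) and 1.99 ± 0.21 from bFGF/BMP4 (adjusted p = 1.1e-04). How fragments on the shared exon were assigned is not given in the sources used here, and the level of Mrps6 is uncertain to that extent.

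**Figure D4:**
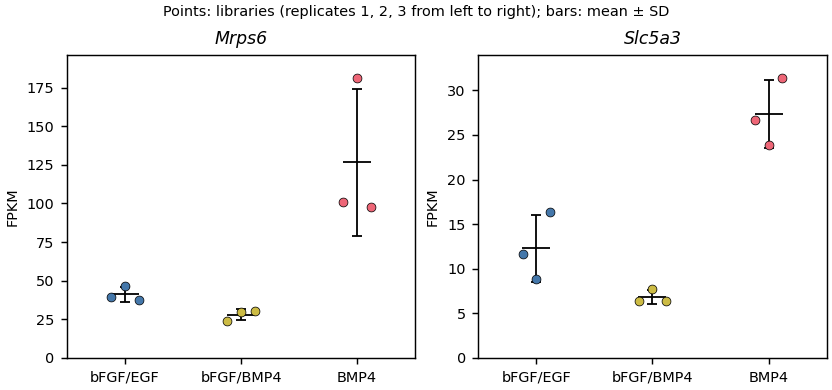
FPKM of Mrps6 (left) and Slc5a3 (right) in each library, with the mean ± SD of 3 libraries as bars and axes from 0. In both genes the 3 BMP4 libraries lie above the other 6, up to 182 FPKM for Mrps6 and 31.4 for Slc5a3, and BMP4 replicate 2 is the highest for Mrps6 and the lowest BMP4 library for Slc5a3.

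Few members differed between the BMP4 conditions. Against bFGF/BMP4-treated NSCs, BMP4-treated NSCs had no member lower and 3 higher, Mrps6, Mrpl36 and Mrps35, while 8.89% of all genes were lower and 12.2% higher (limma). No member was lower at an unadjusted p under 0.05 either, and limma-voom on the rebuilt fragments also gave 0. The median difference was 0.10, and that of all genes 0.00. In 13 members every BMP4 library was above every bFGF/BMP4 library (20.5% of all genes), and in 0 every one was below (18.3%). By at least 2-fold only Mrps6 was higher, against 8.41% of all genes, and none lower, against 5.14%. Mrpl36, the counterpart of the smallest bacterial large subunit protein, had FPKM of 19.9, 19.4 and 20.7 in bFGF/BMP4 and 31.6, 39.6 and 27.7 in BMP4 libraries, against 31.3, 38.7 and 25.2 in bFGF/EGF. Its BMP4 libraries were all above the bFGF/BMP4 libraries, by 0.70 ± 0.17 (adjusted p = 0.016), and overlapped the control. Mrps35, a small subunit protein of mitochondria only, had 3.45, 3.95 and 4.62 and 5.93, 7.05 and 5.23 and differed by 0.59 ± 0.17 (adjusted p = 0.034). Mrps9 and Mrpl33, next in size, had 5.93, 5.28 and 4.95 and 1.80, 2.12 and 2.57 FPKM in bFGF/BMP4 and 6.80, 8.36 and 6.64 and 2.56, 4.31 and 2.74 in BMP4 libraries and did not pass (0.42 and 0.52, adjusted p = 0.051 and 0.14). The lowest differences were those of Mrps7, Mrpl23, Mrpl58, Mrpl57 and Mrps15, from -0.32 to -0.17, where the libraries of both conditions overlapped. Without BMP4 replicate 2 only Mrps6 was higher, Mrps7 (-0.51, adjusted p = 0.029) and Mrps15 (-0.33, adjusted p = 0.0405) were lower, and the median was -0.04; of all genes 10.7% were then higher and 7.68% lower. Without bFGF/BMP4 replicate 2 the number of higher members was 1.

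The mitoribosomal proteins whose genes carry other names were Dap3, Ptcd3, Chchd1, Aurkaip1 and Gadd45gip1. Of these 5, 3 were lower in bFGF/BMP4 and 4 in BMP4, against 23.6% and 25.3% of all genes. Their medians were -0.65 and -0.68. Chchd1, a small subunit protein, had FPKM of 63.5, 86.6 and 58.2 in bFGF/EGF, 29.9, 28.9 and 27.7 in bFGF/BMP4 and 26.0, 41.6 and 29.5 in BMP4 libraries, without overlap with the control (-1.24 and -1.11). Gadd45gip1, a large subunit protein, differed by -0.65 and -0.85, and Ptcd3, a small subunit protein with pentatricopeptide repeats, by -0.69 and -0.68. Dap3, a small subunit protein that binds GTP, had 9.66 to 18.1 FPKM and was lower in BMP4 only (-0.45, adjusted p = 0.034, against -0.21, adjusted p = 0.30, in bFGF/BMP4). The difference of Dap3 between the BMP4 conditions was -0.24 (adjusted p = 0.35).

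Of 28 genes that assemble the mitochondrial ribosome or modify its RNA, 7 (25.0%) were lower and 3 (10.7%) higher in bFGF/BMP4, and 8 (28.6%) were lower and 6 (21.4%) higher in BMP4. The shares of lower genes were near those of all genes, 23.6% and 25.3%, and 25.0% and 29.6% of all genes were higher. Ngrn, which acts on the large ribosomal RNA, had 9.27, 9.74 and 8.98 FPKM in bFGF/EGF, 20.7, 21.3 and 23.4 in bFGF/BMP4 and 20.4, 28.0 and 21.4 in BMP4 libraries and was higher in both (1.21 and 1.30). Mpv17l2, an inner membrane protein needed for assembly, was higher as well (1.00 and 1.49). Mrm2, a methyltransferase of the large ribosomal RNA, was higher in bFGF/BMP4 (0.47) and lower in BMP4 than in bFGF/BMP4 (-0.55, adjusted p = 0.015). Mrm1, a related methyltransferase, differed by 0.66 between the BMP4 conditions (adjusted p = 0.072).

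Among 17 mitochondrial translation factors, none was lower (limma) and 4 (23.5%) were higher in each BMP4 condition, with medians of 0.22 and 0.21. The share of higher factors was below that of all genes, 25.0% in bFGF/BMP4 and 29.6% in BMP4. In each condition the 4 were Mtif3, Mtrfr, Mtfmt and Taco1. At an unadjusted p under 0.05 the number lower was also 0, and limma-voom gave 1 in bFGF/BMP4 and 0 in BMP4. Mtif3, an initiation factor, had 2.05, 1.95 and 1.46 FPKM in bFGF/EGF, 3.23, 2.90 and 2.90 in bFGF/BMP4 and 3.00, 4.53 and 3.52 in BMP4 libraries, with no overlap (0.71 and 0.97). Mtrfr, a release factor for stalled ribosomes, differed by 0.75 and 0.51. Pdf, the peptide deformylase, lay at 0.0731 to 0.518 FPKM and differed by -0.76 in BMP4 (adjusted p = 0.17). Between the BMP4 conditions Gfm1, an elongation factor, and Mrrf, the recycling factor, differed by -0.41 and 0.34 (adjusted p = 0.051 and 0.15). Tufm, another elongation factor and the most abundant of the 17, had 52.2 to 67.5, 52.4 to 61.2 and 55.0 to 66.6 FPKM and did not pass. Of 17 mitochondrial aminoacyl-tRNA synthetases, 7 (41.2%) were lower and 2 (11.8%) higher in bFGF/BMP4, and 6 (35.3%) were lower and 5 (29.4%) higher in BMP4. Of all genes 23.6% were lower and 25.0% higher in bFGF/BMP4, and 25.3% and 29.6% in BMP4. The share of higher synthetases in BMP4 was thus near that of all genes. Yars2, for tyrosine, Sars2, for serine, and Ears2, for glutamate, differed by -1.07, -0.97 and -0.92 in bFGF/BMP4 and by -1.02, -1.25 and -1.41 in BMP4, and Fars2, for phenylalanine, by 0.72 and 1.34 in the other direction. Rars2, for arginine, was lower in bFGF/BMP4 (-0.69, adjusted p = 0.0027) and higher in BMP4 than there (0.76, adjusted p = 0.0037).

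Of 10 genes for the replication and transcription of mitochondrial DNA, 2 (20.0%) were lower and 3 (30.0%) higher in bFGF/BMP4, and 3 (30.0%) were lower and 1 (10.0%) higher in BMP4. Of all genes 23.6% were lower and 25.0% higher in bFGF/BMP4 and 25.3% were lower and 29.6% higher in BMP4, so that the shares were near the background but for the single higher gene in BMP4. Polg, the DNA polymerase of mitochondria, had 19.4, 21.7 and 20.0 FPKM in bFGF/EGF, 16.4, 15.4 and 18.4 in bFGF/BMP4 and 6.77, 5.39 and 7.45 in BMP4 libraries, lower in BMP4 than in both other groups (-1.64 and -1.35). Polg2, its accessory subunit, was higher in bFGF/BMP4 (0.67, adjusted p = 0.021). Top1mt, the mitochondrial topoisomerase, was lower there (-0.62, adjusted p = 0.0080), and Tfb2m, a transcription factor of mitochondria, was higher in BMP4 (0.60, adjusted p = 0.010). Polrmt, the mitochondrial RNA polymerase, differed by -0.31 between the BMP4 conditions (adjusted p = 0.16). Of 10 nuclear regulators, 6 were lower and 2 higher in each BMP4 condition. Myc, a growth regulator, had 62.0, 69.1 and 41.2 FPKM in bFGF/EGF, 3.64, 5.28 and 8.66 in bFGF/BMP4 and 5.71, 5.66 and 4.51 in BMP4 libraries (-3.33 and -3.39). Ppargc1a, the coactivator PGC-1alpha of mitochondrial biogenesis, had 5.64, 3.87 and 6.37, then 37.1, 30.2 and 26.1, then 34.2, 25.6 and 28.8 (2.55 and 2.48), far above the control in all 6 libraries. Its relatives Pprc1 and Ppargc1b were lower, with differences of -1.35 and -1.91 with bFGF/BMP4 and of -1.62 and -1.40 with BMP4 alone. Nrf1 was lower in both (-0.42 and -0.51) and Mycn in bFGF/BMP4 only (-1.36, against -0.06 in BMP4; the conditions differed by 1.30, adjusted p = 4.0e-04).

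Set beside other families of the same processes, the summed FPKM of the members took a middle place. It was 1621, 1936 and 1444 in bFGF/EGF, 1279, 1232 and 1242 in bFGF/BMP4 and 1255, 1804 and 1294 in BMP4 libraries. All bFGF/BMP4 libraries were below the controls, and BMP4 replicate 2 lay within their range. Relative to the bFGF/EGF mean the group means were 0.75 in bFGF/BMP4 and 0.87 in BMP4, or 0.75 and 0.815 without Mrps6. As a share of all FPKM the members held 0.600% ± 0.0502 (SD, n = 3) in the bFGF/EGF libraries, 0.449% ± 0.0158 with bFGF/BMP4 and 0.490% ± 0.0552 with BMP4. Cytosolic ribosomal proteins stood at 0.35 and 0.31, with 82 and 83 of 84 tested genes lower and a median of -1.55 and -1.75. The nuclear-encoded subunits of the respiratory chain stood at 1.27 and 1.36. Their BMP4 libraries were at 1.12, 1.75 and 1.21, so that BMP4 replicate 2 raised the second mean. The bFGF/EGF libraries ran from 0.85 to 1.19 and overlapped the BMP4 libraries. Of the 85 tested subunit genes 21 (24.7%) and 30 (35.3%) were higher, against 25.0% and 29.6% of all genes. The numbers lower were 3 (3.53%) and 4 (4.71%), against 23.6% and 25.3%. The 13 protein-coding genes of the mitochondrial genome, the messages that mitochondrial ribosomes translate, stood at 1.80 and 1.86. In each condition 8 of these 13 (61.5%) were higher and none was lower (limma). The number lower was 0 also at an unadjusted p under 0.05 and by limma-voom. Summed FPKM is a share of the sequenced RNA and holds no amount per cell.

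**Figure D5:**
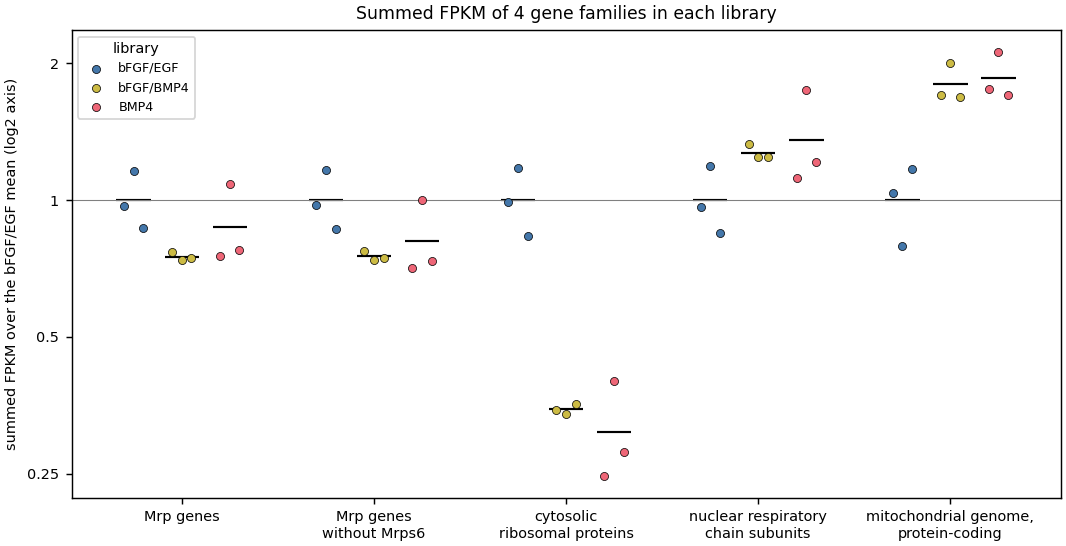
Summed FPKM of each family in each library, divided by the family's mean over the 3 bFGF/EGF libraries, on a log2 axis; lines are group means (n = 3). Members lie at 0.75 and 0.87 in the BMP4 conditions, cytosolic ribosomal proteins at 0.35 and 0.31, nuclear respiratory chain subunits at 1.27 and 1.36 and mitochondrial genome transcripts at 1.80 and 1.86. BMP4 replicate 2 is the highest BMP4 library in every family.

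Many member genes share exons with a neighbour, and whether fragments were counted by strand is not given in the sources used here. In the GENCODE vM39 annotation 37 members share no exon with another protein-coding gene of the table and 15 share at least 20% of their exon length. Of the 36 tested members that share no exon with a protein-coding gene, 20 were lower in bFGF/BMP4. In BMP4, 18 of them were lower and 2 higher. Their medians were -0.44 and -0.39. Some of these members, such as Mrpl34, do share exons with a noncoding gene. Of the 15 with a large share, 4 were lower in bFGF/BMP4 (26.7%) and 5 in BMP4 (33.3%), and 1 was higher in each. The medians of these 15 were -0.30 and -0.08. Of all genes 23.6% were lower and 25.0% higher in bFGF/BMP4, and 25.3% and 29.6% in BMP4. In bFGF/BMP4 the proportion of lower genes among the 15 was thus near that of all genes. The annotation lists 6 pseudogenes named after 4 members, and reads from near-identical copies could not be told apart here.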

How the data were processed

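RNA-seq was measured in 9 libraries, 3 per group. The authors deposited FPKM per gene; the submitters' processing notes list fastp 0.19.7, HISAT2 2.0.5, featureCounts 1.5.0-p3 and the build mm39, while the strand setting and annotation release are not given in the sources used here. Here log2(FPKM + 0.1) was fitted, for genes whose mean FPKM reached 0.1, across all 9 libraries with limma 3.58.1 (R 4.3.3), trended variance and Benjamini-Hochberg adjustment over all genes tested, called at 0.05. Fold changes are on this scale, which understates those of low genes. Members, gene lists and tests were chosen with earlier results of these data known. Genes named are the 5 lowest and 5 highest differences per comparison with mean FPKM of at least 1, the 5 highest levels, and the stalk, protuberance, tunnel exit and S18 members, and the 2 largest changes of each other list per comparison (marker lists are given by their sums, and 1 of them is not reported here); further genes were named after their values were seen. Of 55414 Ensembl identifiers, 54749 were in the GENCODE vM39 annotation (GRCm39). Whole fragments were rebuilt from the FPKM steps for all 30860 genes above 0. The fit was tested on simulated data. Alternatives were other scalings, filters, thresholds, pseudocounts, limma-voom, a replicate block and leaving out each library.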

Additional observations from a re-analysis of the deposited data

How the results depend on the processing

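In bFGF/BMP4- and BMP4-treated NSCs the number of lower members against bFGF/EGF stayed within 1.5 times the reported count in every alternative but the 2-fold threshold, which left 7 and 8. Leaving out 1 library gave 26 to 40 and 21 to 36 lower, and limma-voom 46 and 33. Of the 31 and 30 lower members, 24 and 21 passed in every setting apart from the 2-fold and 0.01 thresholds, and Mrps6 was the only higher member to do so. The median difference in BMP4 was -0.32 to -0.09 without a library, -0.24 on the TPM scale, and -0.25 both with limma-voom and after rescaling to fragments on genes (chosen after seeing the data). Counts of higher members were less stable. For bFGF/BMP4 the count was 0 without the filter, with only the 2 groups compared, after that rescaling, at 2-fold and at an adjusted p of 0.01, 2 after quantile scaling, and 0 to 1 without a library. For BMP4 it was 7 after quantile scaling, 2 with only the 2 groups compared, 1 at 2-fold and 1 at 0.01, and 1 to 5 without a library. Quantile scaling moved the median of all genes in that comparison from 0.10 to -0.03. Between the BMP4 conditions the higher count was 1 at 2-fold and 1 at 0.01, and 1 to 3 without a library, the lower count 0 to 2, and the median -0.035 (without BMP4 replicate 2) to 0.19 (without BMP4 replicate 1). The causes were not tested.

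Over all genes tested, deviations from the group means correlated at -0.08 to 0.12 between same-numbered libraries and at -0.15 to 0.08 between others. The members' median deviation from group mates was above 0 in replicate 2 of both bFGF/EGF (0.31) and BMP4 (0.44). It was below 0 in their replicates 1 (-0.05 and -0.25) and 3 (-0.26 and -0.18). In bFGF/BMP4 it was 0.01, -0.02 and 0.05. Whether the numbers pair the libraries is therefore not settled. With the replicate number as a block 32, 29 and 0 members were lower and 1, 4 and 3 higher in the 3 comparisons. Tested members had 98 or more fragments in each library, and 3 libraries per group limit the precision.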
